A study of Mus musculus with 5 samples.

Results

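Tenocyte-like cells of skeletal muscle 5 days after polytrauma were taken from 1 single-cell RNA sequencing library by 3 tendon genes. They are the cells with at least 2 unique molecular identifiers (UMIs, each standing for 1 captured transcript) of at least 2 of Scx, Tnmd and Kera. The rule gave 659 cells of the 10839 that passed the cell filter in this library, which is 6.08% (exact Clopper-Pearson 95% interval 5.64 to 6.55), among 34439 cell barcodes in the 5 libraries of the series. The comparison cells were the 6860 filtered cells of the same library with no UMI of the 3 genes (63.3%), and 3320 intermediate cells (30.6%) were in neither group.

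Tendon is built by fibroblasts, the tenocytes, that secrete and align type I collagen. Scx encodes scleraxis, a basic helix-loop-helix transcription factor of tendon progenitors and tenocytes, and Tnmd encodes tenomodulin, a transmembrane glycoprotein that marks maturing tendon. Kera encodes keratocan, a small leucine-rich proteoglycan that sits on collagen fibrils. In muscle, such cells are found where fibers join tendon and along the connective tissue sheaths.

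The library was made from GFP+ Prx1-derived cells of Prx1Cre;mTmG mice on a C57Bl/6 background, in which Cre driven by the Prx1 limb mesenchyme enhancer leaves lasting GFP in all descendants. The study's methods give adult animals 10 to 14 weeks old, 2 mice pooled per library, and removal of tendons and fat before the muscles around the tibia were digested. Polytrauma is mechanical injury of these muscles together with a non-stabilized fracture of the tibia, and the other libraries were d0 (uninjured), d3 and d5 post-fracture and d3 post-polytrauma, all of the same genotype and strain. Each condition had 1 library, so no difference was tested, values are summed over cells and given as CPM, the UMIs of a gene scaled to a total of 1000000 UMIs, and all intervals cover counting error only.

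The libraries stood apart in ways that bear on any comparison between them. Xist, the RNA that silences one X chromosome in female cells, lay at 0.136 CPM over the filtered d5 post-polytrauma cells, with a UMI in 9 cells. Xist lay at 886 CPM at d0, at 409 at d3 post-fracture, at 425 in the library labelled d5 post-fracture and at 772 in that labelled d3 post-polytrauma. Ddx3y, a gene of the Y chromosome, lay at 60.5 CPM in the d5 post-polytrauma library and between 0 and 0.173 CPM in the others. The labels give no sex, Tnmd lies on the X chromosome, and sex and condition cannot be told apart across these libraries. None of the 659 tenocyte-like cells had a UMI of Xist (exact upper limit 0.558%) and 384 of them (58.3%) had one of Ddx3y.

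The d5 post-polytrauma library held 13641 barcodes and 204474562 UMIs, with a median of 14242 per barcode. It shared 944 barcodes with the library labelled d3 post-polytrauma, where they held a median of 42228 UMIs against 870 here, and these were left out, which removed 11 cells of the filter. With the other 3 libraries it shared 1, 3 and 0 barcodes, and those 3 shared between 405 and 525 with each other, at medians of 577 to 785 UMIs per barcode. The d5 post-polytrauma library and that labelled d3 post-polytrauma also drew their barcodes from another set than the d0 library and those labelled d3 and d5 post-fracture, although the labels name the same kit for all. The labels of the libraries called d5 post-fracture and d3 post-polytrauma were in doubt, because cell numbers in the study's own source data fit them the other way round, so they are named here only by their labels. The d0 library was shallow, and 918 of its 5367 retained cells reached the limit of 5000 UMIs.

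Most tenocyte-like cells at d5 post-polytrauma were chosen by Scx and Tnmd. Of the 659 cells, 459 (69.7%) had both without Kera, 119 (18.1%) had all 3 genes, 65 (9.86%) had Tnmd and Kera without Scx and 16 (2.43%) had Scx and Kera without Tnmd, each at 2 or more UMIs. Scx (ENSMUSG00000034161, GRCm38 chr15:76457452-76459458, plus strand, within the span of Bop1 on the minus strand) had a median of 4 UMIs per cell and a highest value of 42, and was absent from 44 cells. Tnmd (ENSMUSG00000031250, chrX:133850980-133865577, plus strand) had a median of 9 and a highest value of 125, and was absent from 7 cells. Kera (ENSMUSG00000019932, chr10:97606879-97613692, plus strand) had a median of 0 and a highest value of 24, and 404 cells had none. Their summed levels were 281, 659 and 99.1 CPM in that order. These values chose the cells and are a description.

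The tenocyte-like cells were about as deep as the comparison cells. They had a median of 17755 UMIs and 4017 genes, against 16496 UMIs and 3842 genes, and a median of 3.41% against 3.28% of UMIs on mitochondrial genes. Free RNA is a source of single UMIs in droplet data. In the 20 filtered cells with 2 or more UMIs of at least 2 hematopoietic genes, a cell type that should lack the markers, Scx and Tnmd each had a UMI in 3 cells (15%, exact interval 3.21 to 37.9) and Kera in 0, at a median of 13554 UMIs per cell. None of these 20 cells met the rule. Over all filtered cells, 22.1% had a UMI of Scx, 24.2% of Tnmd and 3.43% of Kera, at a median of 16761 UMIs. The shares for Scx and Tnmd lie within the interval of the hematopoietic cells, so a single UMI was not read as expression.

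The same rule was then applied to every library. At d0, 106 of 918 cells (11.5%, 9.55 to 13.8) met it, at d3 post-fracture 93 of 4907 (1.90%, 1.53 to 2.32), in the library labelled d5 post-fracture 68 of 5744 (1.18%, 0.920 to 1.5) and in that labelled d3 post-polytrauma 137 of 1414 (9.69%, 8.20 to 11.4), or 41 of 551 (7.44%) of its cells with barcodes of their own. Because the rule counts UMIs, its yield depends on depth, and every cell was also thinned to 5000 UMIs drawn without replacement. After thinning, 242 cells (2.23%, 1.96 to 2.53) met the rule at d5 post-polytrauma, 11% at d0, 0.897% at d3 post-fracture, 0.366% in the library labelled d5 post-fracture and 1.27% (0.756 to 2.00) in that labelled d3 post-polytrauma. The 137 cells of this last library had a median of 43736 UMIs. After thinning, the d0 share was the highest of the 5 and the d5 post-polytrauma share the second, with an interval that overlaps that of the library labelled d3 post-polytrauma. The d0 share is that of its deepest cells only.

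**Figure D1:**
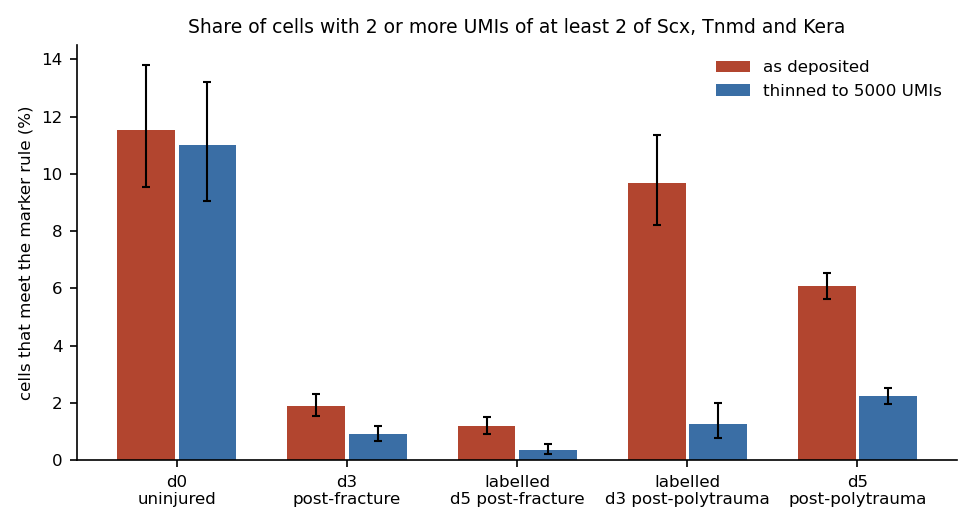
Share of filtered cells (percent, vertical axis) that had 2 or more UMIs of at least 2 of Scx, Tnmd and Kera in each of the 5 libraries, as deposited (red) and after thinning to 5000 UMIs per cell (blue), with bars for the exact 95% interval of counting error. At d5 post-polytrauma the share is 6.08% as deposited and 2.23% after thinning.

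Beyond the 3 chosen genes, the tenocyte-like cells had higher levels of other genes of tendon, among them the matrix genes Thbs4 and Fmod and the transcription factor Mkx. They had lower levels of Aldh1a2, Plac8, Hp and the interferon-inducible genes Ifi204, Ifi203 and Mndal. Of 5638 genes at 20 CPM or more in either group, 87 were at least 2-fold higher in the tenocyte-like cells, a background of 1.54%, and 45 were at least 2-fold lower, 0.798%. Over the 5638 genes the log2 ratio had a median of -0.03. The contrast is the one by which the cells were chosen, so the ratios below are a description and were not tested. A gene can also reach 20 CPM only in the group where it is high, so the counts per list below are partly set by this limit.

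Thbs4 encodes thrombospondin-4, a matrix glycoprotein of tendon and muscle. It lay at 2321 CPM in the tenocyte-like cells and at 232 in the comparison cells, a ratio of 10.0 (counting interval 9.84 to 10.2). Per cell it had a median of 30 UMIs, a 10th percentile of 4 and a highest value of 281, against a median of 1 and a highest value of 233. At 5000 UMIs per cell it was detected in 92.0% of the tenocyte-like cells and in 37.2% of the comparison cells, so the ranges of the groups overlap while most tenocyte-like cells are high. Fmod encodes fibromodulin, a small leucine-rich proteoglycan that takes part in collagen fibril assembly. It lay at 388 against 39.3 CPM (ratio 9.87, 9.49 to 10.3), with a median of 4 UMIs per cell against 0 and detection in 59.9% against 12.2% of thinned cells.

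Thbs4 lies at GRCm38 chr13:92751590-92794818 on the minus strand and Fmod at chr1:134037254-134048277 on the plus strand. Their promoters are shown, with that of Tnmd, as those of the tendon matrix genes of highest ratio at 20 CPM or more and of the gene most cells were chosen by, and because scleraxis belongs to the factors that bind the E-box, CANNTG. Each window holds the 250 bases before and the 50 after the start given by RefSeq on GRCm38.p6, 5′ to 3′ on the strand of the gene, with every CANNTG in capitals.
Thbs4 promoter, chr13:92794769-92795068, minus strand: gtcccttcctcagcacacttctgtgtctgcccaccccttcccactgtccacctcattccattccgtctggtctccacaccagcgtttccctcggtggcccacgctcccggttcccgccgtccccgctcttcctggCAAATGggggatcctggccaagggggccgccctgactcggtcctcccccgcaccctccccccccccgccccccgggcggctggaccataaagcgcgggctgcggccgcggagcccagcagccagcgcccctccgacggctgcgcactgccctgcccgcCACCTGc
Fmod promoter, chr1:134037004-134037303, plus strand: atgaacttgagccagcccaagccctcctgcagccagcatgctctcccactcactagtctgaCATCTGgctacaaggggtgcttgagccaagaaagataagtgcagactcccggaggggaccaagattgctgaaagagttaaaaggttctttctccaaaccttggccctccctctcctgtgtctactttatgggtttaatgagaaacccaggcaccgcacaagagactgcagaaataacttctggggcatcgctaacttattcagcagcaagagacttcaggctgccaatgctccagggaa
Tnmd promoter, chrX:133850758-133851057, plus strand: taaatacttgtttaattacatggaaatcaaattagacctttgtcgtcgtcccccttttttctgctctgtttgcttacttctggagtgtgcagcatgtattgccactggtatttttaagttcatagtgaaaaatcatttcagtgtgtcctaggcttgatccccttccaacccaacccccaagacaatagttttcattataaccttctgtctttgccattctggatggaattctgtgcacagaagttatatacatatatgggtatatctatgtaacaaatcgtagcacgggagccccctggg
The motif reads the same on both strands. The Thbs4 window held 2 matches (CAAATG and CACCTG), the Fmod window 1 (CATCTG) and the Tnmd window 0, as did those of Kera and Prss35. Of 32851 RefSeq promoters of this length, 72.3% held at least 1 match, and 17.2% held CATCTG or its complement CAGATG. A match describes the letters of the window and not a bound site. Scx and Prg4 were not in the promoter table.

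Among transcription factors of tendon, Mkx and Eya2 were at least 2-fold higher, of 7 measured (at 20 CPM or more in either group) in a list of 12. Both reached 20 CPM only in the tenocyte-like cells, so their count is partly set by this limit. Mkx encodes mohawk, a homeobox factor needed for tendon collagen production. It lay at 28.0 against 2.74 CPM (ratio 10.2, 8.79 to 11.9), with a UMI in 14.6% against 1.31% of thinned cells. Eya2, a transcriptional coactivator, lay at 29.3 against 4.57 CPM. Below the limit, the homeobox gene Six2 lay at 19.8 against 0.349 CPM and Eya1 at 4.08 against 0.195. The growth-response factor Egr1, which also serves in tendon, lay at 702 against 621 CPM. The median log2 ratio of the 7 measured factors was 0.63, and none was at least 2-fold lower.

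Of 18 genes listed as tendon matrix, 10 were measured and 5 were at least 2-fold higher, with 0 lower and a median log2 ratio of 1.01. Besides Thbs4 and Fmod these were Col11a1 (518 against 114 CPM), which encodes a chain of the minor fibrillar collagen XI, Comp (228 against 72.0), which encodes a cartilage and tendon thrombospondin, and Itgbl1 (42.4 against 18.2). Tnc, which encodes tenascin-C, lay at 484 against 621 CPM, and Thbs2 at 381 against 328. Genes of the list that did not reach 20 CPM included Ptx4 (9.17 against 0.114), Col22a1 (3.78 against 0.138), a collagen of the muscle-tendon junction, and Wif1 (4.16 against 0.284). Chad, which encodes chondroadherin, lay at 0.308 against 0.341 CPM. Angptl7 lay at 5.78 against 0.0893 CPM, with 46 of its 75 UMIs in 1 cell. Over the 17 genes of the tendon matrix list at 1 CPM or more, the median log2 ratio was 2.18.

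Small leucine-rich proteoglycans, the family of Kera and Fmod, were higher in part. Of 8 measured, 4 were at least 2-fold higher and 0 lower. Dcn, which encodes decorin, lay at 2295 against 1055 CPM, Ogn (osteoglycin) at 730 against 253 and Aspn (asporin) at 1144 against 531. Lum, which encodes lumican, lay at 501 against 309 CPM and Bgn, which encodes biglycan, at 2890 against 3012.

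The main collagens differed less. Col1a1 lay at 12274 against 9042 CPM, Col1a2 at 12860 against 9209 and Col3a1 at 8711 against 6614. Of 10 measured fibrillar collagens 2 were at least 2-fold higher, Col11a1 and Col11a2 (21.8 against 6.88 CPM), and 1 was lower, Col2a1. Of 18 measured genes of collagen processing, such as the crosslinking enzyme gene Lox (1021 against 815 CPM) and the chaperone gene Serpinh1 (2381 against 2114), 0 passed 2-fold in either direction, with a median log2 ratio of 0.11. Among 11 measured matrix metalloproteinases and inhibitors, 3 were at least 2-fold higher. Timp2, an inhibitor of these proteases, lay at 814 against 365 CPM and the membrane protease gene Mmp16 at 32.6 against 7.72. Mmp13, which encodes a collagenase, lay at 54.6 against 10.8 CPM, from 56 of the 659 cells.

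The 15 genes of highest ratio at 20 CPM or more also held secreted and signalling genes. Rspo2 encodes R-spondin 2, an enhancer of Wnt signalling, and lay at 29.9 against 2.16 CPM (ratio 13.8, 11.8 to 16.2). Prss35, a serine protease gene, lay at 68.1 against 5.52 CPM, and Kcnk1, which encodes a potassium channel, at 22.8 against 2.72. Tac1, the precursor gene of substance P, lay at 30.2 against 4.06 CPM, with UMIs in 95 cells. Gas2, which encodes a cytoskeletal linker, lay at 62.0 against 11.3 CPM, Spon2 (spondin 2, a matrix protein) at 30.7 against 5.74 and Abi3bp, which encodes a matrix protein, at 368 against 73.8. Without the cells that had 2 or more UMIs of Kera, the ratio of Abi3bp was 2.58 in place of 4.99 and that of Spon2 3.27 in place of 5.36. Prg4, which encodes lubricin, the lubricant of joint surfaces and gliding tendon, lay at 979 against 185 CPM (ratio 5.30, 5.19 to 5.42) and was detected in 75.1% against 27.4% of thinned cells. The other synovial lining markers lay between 0 and 2.54 CPM in the tenocyte-like cells, with Clic5 at 0. The next ratio below the 15 was 4.87, that of Egfl6.

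A few ratios came from few cells. Among genes at 20 CPM or more beyond the 3 of the rule, Ccl5, which encodes a chemokine, had the highest ratio (22.7 against 1.27 CPM). However, 4 cells held 280 of its 295 UMIs (94.9%). Lcn2, which encodes the acute-phase protein lipocalin 2, lay at 66.7 against 5.79 CPM with UMIs in 98 cells, and its ratio of 11.5 became 1.52 without the cells that had 2 or more UMIs of Kera. Hemoglobin transcripts summed with Alas2 to 146 against 44.6 CPM, and 1 cell held 1001 of the 1112 UMIs of Hbb-bs. In the comparison cells 1 cell held 1263 of 3031. Without the highest cell of each group Hbb-bs lay at 8.56 against 14.4 CPM, so its ratio of 3.48 turned to 0.597. Hba-a1 likewise had 367 of its 397 UMIs in 1 tenocyte-like cell and 483 of 1102 in 1 comparison cell, and its ratio of 3.42 turned to 0.461 without both.

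**Figure D2:**
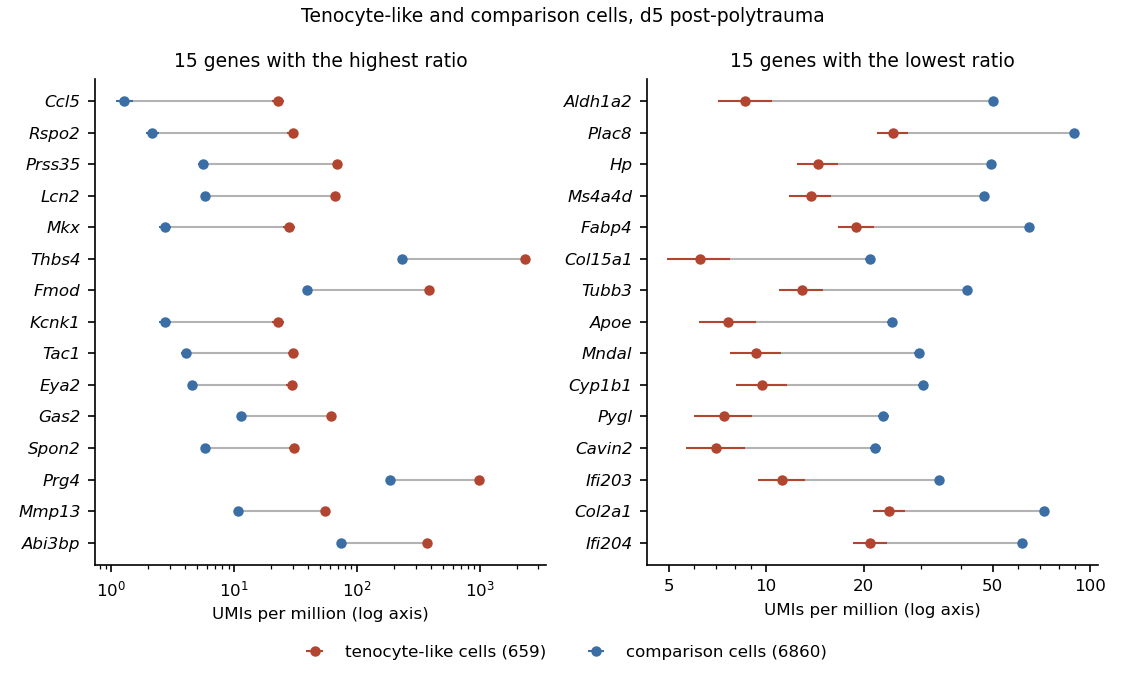
Level (CPM of UMIs, log axis) of the 15 genes with the highest and the 15 with the lowest ratio of tenocyte-like (red, 659 cells) to comparison cells (blue, 6860 cells), with bars for the Poisson 95% interval of counting error. Only genes at 20 CPM or more in either group were ranked. Thbs4 and Fmod lie about an order of magnitude to the right in the tenocyte-like cells, and Aldh1a2 has the lowest ratio shown.

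Among the genes of lower level, Aldh1a2, the enzyme gene for retinoic acid synthesis, lay at 8.63 against 50.1 CPM (ratio 0.172, 0.142 to 0.208) and was detected in 2.58% against 15.5% of thinned cells. Without the cells of highest doublet score its ratio was 0.0641. Plac8 lay at 24.6 against 89.5 CPM, Hp (haptoglobin, an acute-phase protein) at 14.4 against 49.5 and Ms4a4d at 13.7 against 47.1. Fabp4, which encodes a fatty acid binding protein, lay at 19 against 64.7 CPM, Col15a1, a collagen of basement membrane zones, at 6.24 against 20.9 and Apoe (apolipoprotein E) at 7.63 against 24.5. However, Apoe was detected in 4.55% against 5.80% of thinned cells, and 1 comparison cell held 252 of its 3016 UMIs. Its ratio of 0.312 became 0.434 with comparison cells drawn to the same depth. The interferon-inducible genes Ifi204, Ifi203 and Mndal lay at 21, 11.2 and 9.32 CPM, against 61.8, 34.1 and 29.6. The neuronal tubulin gene Tubb3 lay at 12.9 against 41.6 CPM and the retinoid- and steroid-metabolizing cytochrome gene Cyp1b1 at 9.71 against 30.5. Pygl, the liver-type glycogen phosphorylase gene, lay at 7.4 against 23.0 CPM and Cavin2, a gene of caveolae, at 7.01 against 21.7. The next ratio above the 15 was 0.350, that of Gpsm3.

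Col2a1, the type II collagen gene of cartilage, had a ratio of 0.332 in CPM (24.0 against 72.2) but was detected in 4.4% of thinned tenocyte-like cells against 2.17% of comparison cells. In the tenocyte-like cells 1 cell held 220 of its 311 UMIs (70.7%), and without it the level was 7.04 CPM. Acan, the gene of the cartilage proteoglycan aggrecan, lay at 149 against 52.7 CPM, with UMIs in 370 of the 659 cells, and Sox9, the cartilage transcription factor gene, at 131 against 122. At least 2 of 7 chondrocyte genes were detected in 18.8% of thinned tenocyte-like cells (15.9 to 22.0) and in 6.6% (6.03 to 7.22) of comparison cells. Matn1 had no UMI and Hapln1 lay at 4.32 against 14.3 CPM. The summed level of the list was 317 against 274 CPM.

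Markers of FAP/MP, the fibro-adipogenic and mesenchymal progenitors of muscle, were present in both groups. None of the 5 passed 2-fold, with Prrx1 at 268 against 283 CPM, Ly6a at 291 against 352, Pdgfra at 61.0 against 79.8, Cxcl12 at 237 against 323 and Cd34 at 56.1 against 39.7. At least 2 of them were detected in 70.9% of thinned tenocyte-like cells and in 80.3% of comparison cells. Of 3 measured pericyte genes 2 were at least 2-fold lower, Des (8.40 against 22.7 CPM) and Rgs5 (7.55 against 21.3), and the list summed to 58.2 against 110 CPM. Rgs5 came from few cells of either group. It had no UMI in 645 of the 659 tenocyte-like cells and in 6673 of the 6860 comparison cells. The highest cell of each group held 50 and 116 UMIs, so its ratio does not describe most cells.

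Defining markers of other cell types were at or near 0. The 7 hematopoietic genes summed to 5.63 against 21.4 CPM (Lyz2 the most abundant at 1.93, Itgam at 0, Ptprc at 0.0771). The 5 endothelial genes summed to 1.77 against 3.07 CPM (Tek 0.771) and the 5 myogenic genes to 0.462 against 0.795 (Cdh15 0.231, Pax7 and Myod1 at 0). Sox10, a defining transcription factor gene of Schwann cells, was at 0. The 5 perineurial genes summed to 49.0 against 59.6 CPM, of which the widely used glucose transporter gene Slc2a1 gave 39.1. Transcripts of muscle fibers summed to 7.94 against 9.06 CPM. The 5 osteoblast genes summed to 0.694 against 17.6 CPM (Sp7 the most abundant at 0.308, Dmp1 at 0), and Ibsp lay at 0.231 against 16.6.

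Division genes lay at similar levels. Of 10 measured, 0 passed 2-fold in either direction, with Top2a at 130 against 129 CPM, Mki67 at 84.6 against 86.2 and Cdk1 at 104 against 108. At least 2 of the 12 division genes were detected in 37.6% of thinned tenocyte-like cells (33.9 to 41.5) and in 42.3% of comparison cells (41.1 to 43.4). Contractile genes were likewise within 2-fold in all 8 measured, with Acta2, the smooth muscle actin gene, at 1002 against 1227 CPM and Tagln at 418 against 461.

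Among growth factor pathways that act in tendon, few genes passed 2-fold. Of 15 measured TGF-β pathway genes 0 did, with a median log2 ratio of 0.19, the highest ratios belonging to the latency protein gene Ltbp1 (98.6 against 54.3 CPM) and the target gene Tgfbi (380 against 216). Of 8 measured BMP pathway genes 1 did, the antagonist gene Fst, at 39.1 against 100 CPM. The antagonist gene Chrdl1, under the limit, lay at 19.8 against 3.44 CPM. None of 6 measured FGF pathway genes and none of 9 measured YAP targets and mechanosensing genes passed it. Of 3 measured genes of a list of Wnt antagonists and targets, Dkk3 was at least 2-fold higher (46.9 against 20.0 CPM), while Sfrp1 lay at 278 against 529 and Sfrp2 at 513 against 862. Of the other lists, 0 of 6 measured FACIT and type VI collagens passed 2-fold (Col12a1 753 against 431 CPM) and 0 of 8 measured immediate early and heat shock genes did (Fos 2460 against 1953). Of 7 measured genes of tendon sheath and progenitors, Prg4 alone did.

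The levels of some genes followed the strength of the marker signal, and those of others did not. The rule drew its line through cells that formed a gradient, with 217 tenocyte-like cells whose second gene had exactly 2 UMIs and 442 above that, and 361 cells just outside with 1 gene at 2 or more UMIs and another at 1. Thbs4 lay at 232 CPM in the comparison cells, 492 in cells with 1 of the 3 genes, 1266 just outside, 1518 just inside and 2712 in the 442 cells. Fmod lay at 39.3, 94.6, 181, 233 and 463 CPM, and Prg4 at 185, 291, 603, 717 and 1107. Mkx lay at 2.74, 5.85, 14.9, 14.1 and 34.7 CPM, and its cells just outside and just inside did not differ beyond their counting intervals, while those of Thbs4, Fmod and Prg4 did. Dcn lay at 1055, 1256, 1721, 1740 and 2565 CPM and Comp at 72.0, 102, 177, 159 and 262, neither higher just inside than just outside beyond the counting intervals. Acan lay at 52.7, 109, 162, 144 and 152 CPM and Slpi at 57.6, 93.2, 192, 225 and 187, with no further step in the 442 cells. Lcn2 lay at 5.79, 14.3, 64.7, 41.2 and 79.1 CPM, lower just inside than just outside. Ly6a lay at 352, 301, 284, 277 and 298 CPM, with no such slope, although it differed between cells with and without Kera, as given below.

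**Figure D3:**
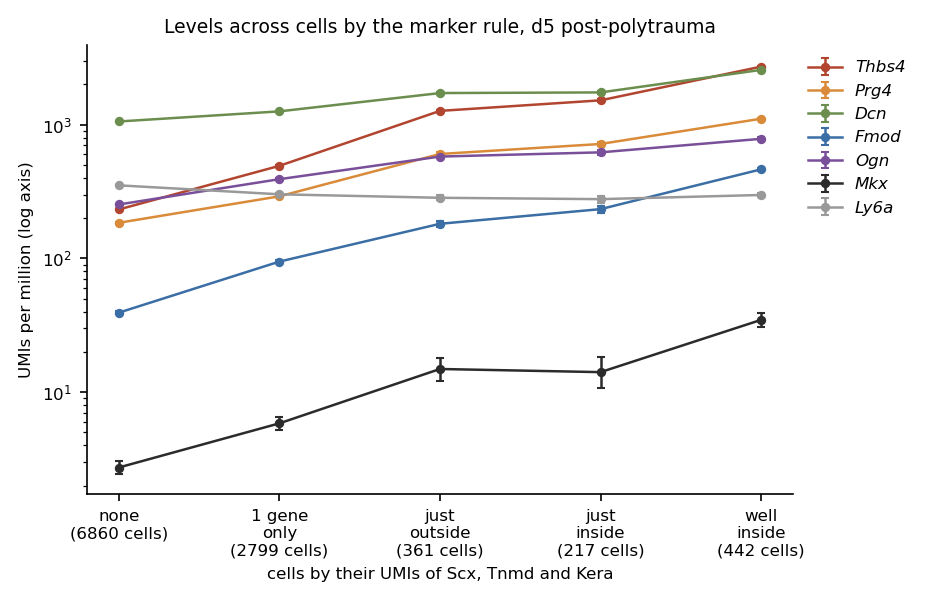
Level (CPM of UMIs, log axis) of 7 genes in d5 post-polytrauma cells ordered by their UMIs of Scx, Tnmd and Kera, from none to 1 gene only, just outside, just inside and well inside the rule, with bars for the Poisson 95% interval. Thbs4 climbs from 232 to 2712 CPM and Fmod from 39.3 to 463, and Ly6a stays between 277 and 352.

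Within the tenocyte-like cells, those with Kera differed from those without. The 200 cells with 2 or more UMIs of Kera were set against the 459 with fewer, which are all of the Scx and Tnmd kind, at medians of 19334 and 17086 UMIs per cell. Of 5667 genes measured, 74 were at least 2-fold higher with Kera (1.31%) and 15 lower (0.265%). Over all of them the log2 ratio had a median of -0.04. Kera is a gene of the rule, and cells with it needed only 1 of Scx and Tnmd. The split is therefore a description and was not tested. Of 10 measured tendon matrix genes 2 were at least 2-fold higher with Kera, Thbs4 (3954 against 1557 CPM) and Comp (388 against 154), 0 were lower, and the median log2 ratio was 0.17. Fmod lay at 406 against 379 CPM. Of 9 measured small leucine-rich proteoglycans Dcn (3967 against 1512 CPM) and Lum were at least 2-fold higher, while Aspn lay at 850 against 1281 and Ogn at 749 against 721. Prg4 lay at 1636 against 671 CPM and Col1a1 at 12267 against 12277. Of 5 measured FAP/MP markers 1 was at least 2-fold higher with Kera, Ly6a (470 against 208 CPM), and 0 were lower, with a median log2 ratio of 0.66. Of 12 measured matrix metalloproteinases and inhibitors 4 were at least 2-fold higher, Mmp3, Mmp13, Mmp16 and Adamts5, and 0 lower, with a median of 0.32.

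Several single genes stood apart in the ranking. With Kera, Lcn2 lay at 190 against 8.82 CPM, with UMIs in 68 of the 200 cells, Saa3 (serum amyloid A3) at 47.1 against 2.26, with UMIs in 19 of the 200 cells, Serpina3n, which encodes a protease inhibitor, at 109 against 14.8 and the alarmin gene Il33 at 123 against 29.8. The chemokine gene Cxcl14 lay at 380 against 71.2 CPM and Ereg, which encodes epiregulin, at 73.2 against 11.8. The cells with Kera were not alike in these genes. Lcn2 lay at 90.6 CPM in the 119 cells that also passed for both Scx and Tnmd, at 330 in the 65 with Tnmd but not Scx and at 383 in the 16 with Scx but not Tnmd, and Cxcl14 lay at 250, 538 and 715 in the same order. For Saa3, 4 cells held 124 of the 215 UMIs of all tenocyte-like cells. Outside the rule, the comparison cells lay at 5.79 CPM in Lcn2, 12.9 in Saa3, 24.1 in Serpina3n and 169 in Cxcl14. Of 8 measured smooth muscle contractile genes 5 were at least 2-fold lower with Kera and 0 higher, with a median log2 ratio of -1.29. They were Acta2 (432 against 1269 CPM), Tagln (151 against 543), Myl9 (121 against 343), Actg2 (8.22 against 43.2) and Tpm2 (268 against 563). The comparison cells lay at 1227 CPM in Acta2 and 461 in Tagln, nearer to the cells without Kera. The growth-related imprinted RNA H19 lay at 174 against 414 CPM, and Mest, another imprinted gene, at 661 against 1032. Mest lay at 875 CPM in the 119 cells with all 3 genes, nearer to the cells without Kera, and at 373 and 206 in the 65 and the 16. Six2 lay at 13.0 against 23.0 CPM. The 4 hemoglobin genes and Ccl5 headed the ranking, for which 1 cell and 4 cells held most of the UMIs, as given above. Col2a1 also ranked high (58.0 against 8.03 CPM), but 1 cell held 220 of its 311 UMIs over all tenocyte-like cells. It had a UMI in 9.5% of the cells with Kera and in 10.5% of the others.

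**Figure D4:**
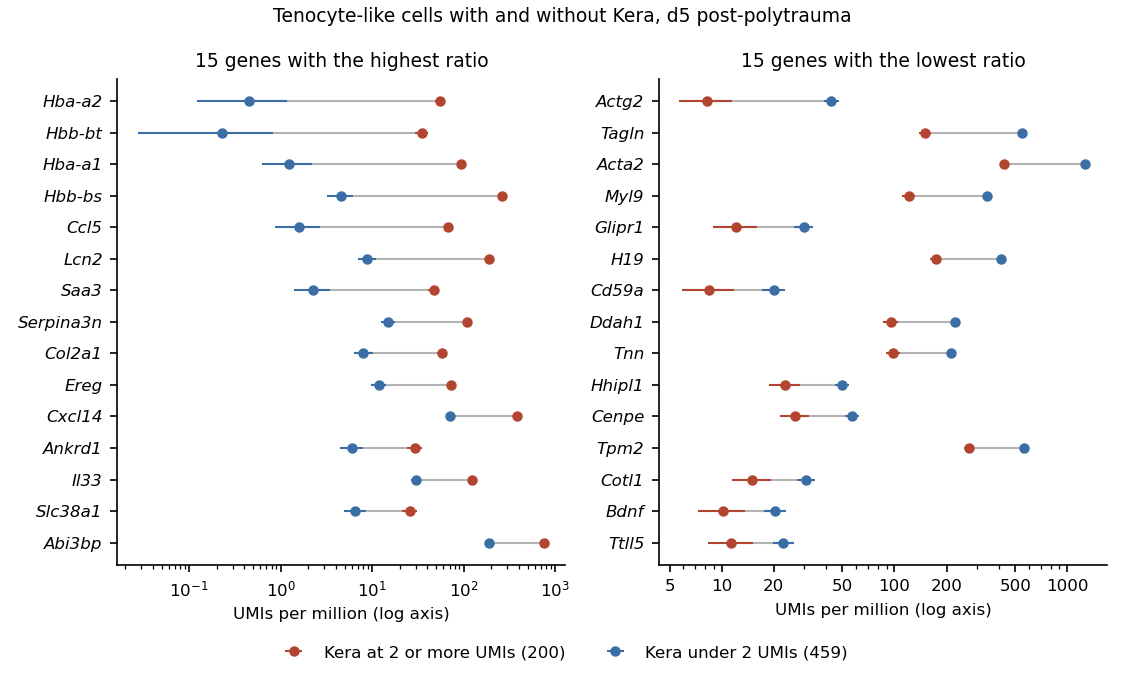
Level (CPM of UMIs, log axis) of the 15 genes with the highest and the 15 with the lowest ratio between tenocyte-like cells with 2 or more UMIs of Kera (red, 200 cells) and the others (blue, 459 cells), with bars for the Poisson 95% interval. Lcn2 lies at 190 against 8.82 and Acta2 at 432 against 1269 CPM.

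The same contrast within the other libraries gives values from cells that the d5 post-polytrauma rule did not use, although the same markers chose them. Of the 87 genes higher at d5 post-polytrauma, 63 were measured at d3 post-fracture, that is at 20 CPM or more in either group there. Of these, 57 (90.5%) were at least 2-fold higher there, where 4.45% of all genes measured were. In the library labelled d5 post-fracture it was 51 of 56 (91.1%, background 4.01%), at d0 41 of 66 (62.1%, background 7.63%) and in that labelled d3 post-polytrauma 19 of 72 (26.4%, background 1.61%). Some genes reached 20 CPM only in the cells by the rule, where they are high, such as Mkx at d3 post-fracture (43.5 against 2.42 CPM). Genes not high there often dropped out, so these shares are partly set by the limit and are a description. Of the 45 lower genes, 23 of 29 measured were at least 2-fold lower at d3 post-fracture (79.3%, background 2.69%), 27 of 34 in the library labelled d5 post-fracture (79.4%, background 2.70%), 23 of 30 at d0 (76.7%, background 14.1%) and 24 of 33 in that labelled d3 post-polytrauma (72.7%, background 3.99%). These shares have the same limit, since some lower genes reached 20 CPM only in the comparison cells. With the limit of 20 CPM applied in every library, 8 genes were at least 2-fold higher in all 5, namely Thbs4, Fmod, Prg4, Col11a1, C1qtnf3, Clec11a, Fibin and Slpi. Genes under the limit in a library were not counted, such as Mkx at 15.5 against 5.13 CPM in that labelled d3 post-polytrauma.

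Thbs4 lay at 3935 CPM in cells by the rule against 48.8 in comparison cells at d0, at 2628 against 93.8 at d3 post-fracture, at 2267 against 77.2 in the library labelled d5 post-fracture and at 1130 against 233 in that labelled d3 post-polytrauma. Its ratio of 10.0 at d5 post-polytrauma was thus below those of d0 (80.7), d3 post-fracture (28.0) and the library labelled d5 post-fracture (29.4), and above 4.84 in that labelled d3 post-polytrauma. Aldh1a2 lay at 3.88 CPM (3 UMIs) against 22.3 at d0, at 2.63 against 31.2 at d3 post-fracture, at 6.75 against 57.7 in the library labelled d5 post-fracture and at 8.46 against 24.9 in that labelled d3 post-polytrauma.

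**Figure D5:**
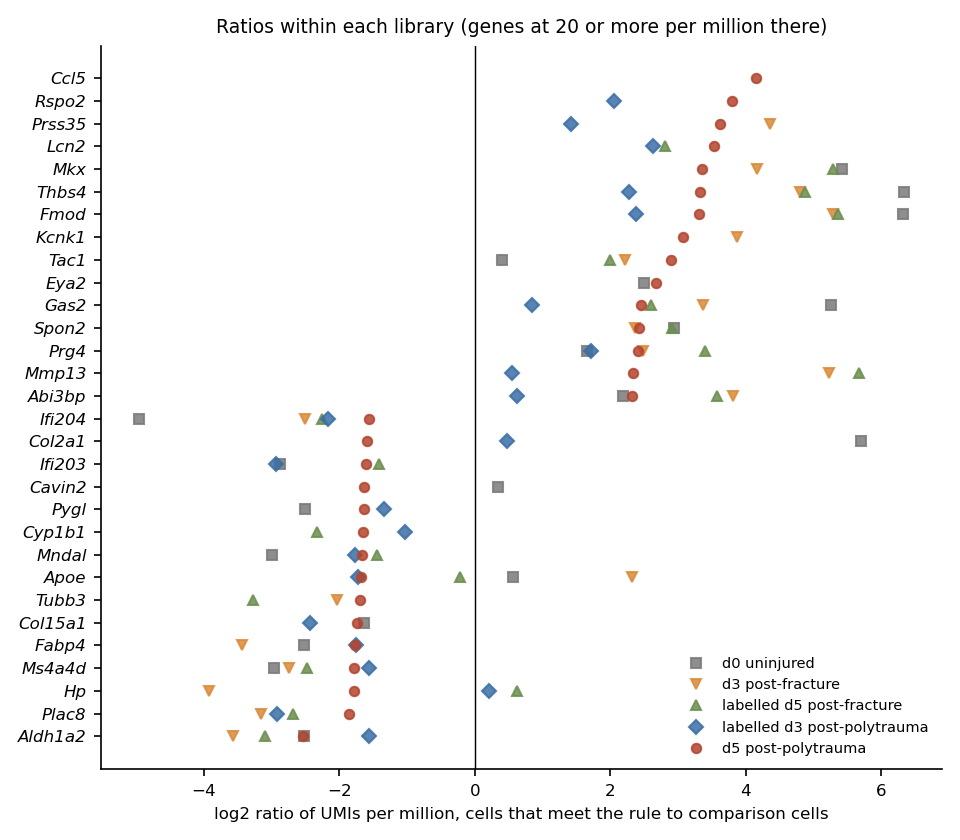
Log2 ratio (horizontal axis) of cells by the rule to comparison cells within each of the 5 libraries for the 30 genes named at d5 post-polytrauma (red circles), shown where the gene reached 20 CPM in that library. Most symbols lie on the same side of 0 as the red circle, with exceptions for Hp, Apoe, Col2a1 and Cavin2. A gene can reach the limit through its higher group alone, so which symbols are shown, and on which side, is partly set by the limit.

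Tenocyte-like cells at d5 post-polytrauma had lower levels of tendon matrix and higher levels of division transcripts than cells by the same rule at d0, but the rule took cells of another marker make-up there. The cells at d0 lay at 90.6 CPM in Scx, 4094 in Tnmd and 2410 in Kera, against 281, 659 and 99.1 at d5 post-polytrauma, where the cells with Kera had more Thbs4, Comp and Dcn than those without. The part of this make-up in the differences between libraries was not tested. The 18 tendon matrix genes summed to 5298 CPM at d5 post-polytrauma and to 28053 at d0, with 7005 at d3 post-fracture, 4242 in the library labelled d5 post-fracture and 6670 in that labelled d3 post-polytrauma. Fmod lay at 388 CPM against 12335 at d0, and Dcn at 2295 against 23347. Chad lay at 0.308 against 2821 CPM, Angptl7 at 5.78 against 1679, Wif1 at 4.16 against 1158, Cilp2 at 1.39 against 706 and Myoc, which encodes myocilin, at 0.771 against 508.

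The 12 division genes summed to 768 CPM at d5 post-polytrauma and to 5.18 at d0, with 588 at d3 post-fracture and 504 and 608 in the libraries labelled d5 post-fracture and d3 post-polytrauma. Birc5, which encodes survivin, lay at 159 CPM against 0 at d0, and Stmn1, which encodes a microtubule regulator of dividing cells, at 195 against 3.88. Col3a1, a collagen of young and scar tissue, lay at 8711 CPM against 824 at d0, while Col1a1 lay at 12274 against 27172. Of the 10 genes highest against d0, Sfrp1 lay at 278 CPM against 0, Fabp5 at 544 against 7.76, Spp1 (osteopontin) at 555 against 10.4, Ltbp2 at 194 against 0, Tnn (tenascin-W) at 176 against 0 and the chemokine gene Cxcl5 at 187 against 3.88. The comparison cells were also higher than at d0 in these genes, with ratios of 58.9, 72.9, 231, 18.9, 11.3 and 30.9 in that order. Birc5 and Stmn1 had ratios of 31.7 and 4.84 there, so these differences were not particular to the tenocyte-like cells.

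Many of the genes that differed from d0 also differed between the comparison cells. Of 6141 genes measured, 1692 (27.6%) were at least 2-fold higher and 828 (13.5%) lower in the tenocyte-like cells than at d0, and 1160 and 603 of these (68.6% and 72.8%) also passed 2-fold in the same direction between the comparison cells of the 2 libraries. The share of all measured genes that passed between comparison cells is not given here, for d0 or the other libraries. How far these shares lie from it can therefore not be read. For Chad the ratio was 0.000109 in the cells of the rule and 0.00130 in the comparison cells. For Fabp5 it was 70.1 and 72.9, and for Myoc 0.00152 and 0.000866. Scand1 was among the highest against the d0 and d3 post-fracture libraries and that labelled d5 post-fracture (218 CPM against 0, 0.659 and 0), and had ratios of 249, 718 and 566 in the comparison cells. These 3 libraries also had the other barcode set and the other sex chromosome transcripts, whose part in these ratios was not tested.

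Against the library labelled d3 post-polytrauma, which shares its barcode set, fewer genes were higher than against each other library. The lower genes were fewer than against d0 only. Of 5880 measured, 82 (1.39%) were at least 2-fold higher in the d5 post-polytrauma tenocyte-like cells and 276 (4.69%) lower. After Xist and its antisense RNA Tsix, the 10 lowest included Scrg1 at 0.694 against 64.9 CPM, Clec3b (tetranectin) at 1.23 against 86.2, the cartilage collagen genes Col9a3 at 5.39 against 344 and Col2a1 at 24.0 against 1485, Cnmd (chondromodulin) at 1.93 against 111 and Hapln1 at 4.32 against 197. These genes were also lower in the comparison cells, with ratios from 0.0170 to 0.0821. Besides the genes of the sex chromosomes and those of few cells, Crabp1, which encodes a retinoic acid binding protein, was higher at 89.3 against 2.04 CPM, Ereg at 31.4 against 1.25, Il11 at 31.0 against 3.29 and the cyclin gene Ccnd1 at 43.0 against 5.64. These genes were higher in the comparison cells too, with ratios of 12.7, 15.1, 9.14 and 3.41 in that order. Serpinb1a, which encodes a protease inhibitor, lay at 130.0 against 22.3 CPM and had a ratio of 1.25 in the comparison cells. Of the 82 higher genes, 37 (45.1%) also passed 2-fold in the same direction in the comparison cells, and of the 276 lower genes 215 (77.9%), again without the share over all measured genes.

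Against d3 post-fracture, 1450 of 5591 genes (25.9%) were at least 2-fold higher and 197 (3.52%) lower, and against the library labelled d5 post-fracture 1475 of 5628 (26.2%) and 248 (4.41%). In the comparison cells, 1094 of the 1450 (75.4%) and 95 of the 197 (48.2%) also passed 2-fold in the same direction. For the library labelled d5 post-fracture it was 1144 of the 1475 (77.6%) and 147 of the 248 (59.3%). Fmod lay at 388 CPM against 1884 and 482, and Prg4 at 979 against 1235 and 1742. Chad at 0.308 against 128 CPM and Fbln7, which encodes a fibulin, at 11.5 against 185 were among the lowest against d3 post-fracture, and their comparison cells had ratios of 0.955 and 0.583. Among the lowest against the library labelled d5 post-fracture were Saa3 at 16.6 against 888 CPM and Sfrp4 at 4.24 against 109, with ratios of 0.0862 and 0.595 in the comparison cells. The heat shock gene Hspa1a lay at 24.1 CPM against 1266 and 495, with ratios of 0.0638 and 0.0802 in the comparison cells. Higher in the d5 post-polytrauma cells were Cebpb, which encodes an inflammatory transcription factor, at 293 CPM against 12.5 at d3 post-fracture, and its relative Cebpd at 309 against 12.0 in the library labelled d5 post-fracture, again with ratios of 19.9 and 22.7 in the comparison cells.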

How the data were processed

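GFP+ cells of hindlimb muscle were sorted and run with a Chromium 3′ kit (v.2 per the labels), 1 library per condition. Alignment to mm10 and counting were done by the authors in Cell Ranger (3.1.0 in the matrix header, another version in the methods). The deposited values are raw counts of UMIs per gene (31055 genes) and barcode. Seurat 3.1.2 is named in the submitters' processing notes. Positions came from GENCODE M21 (GRCm38), which lists 99.6% of the gene identifiers, and promoters from RefSeq on GRCm38.p6.

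Barcodes with 350 to 8000 genes, under 20% mitochondrial UMIs and at least 5000 UMIs were kept, and 1765 retained d5 post-polytrauma cells lay under the last limit. Counts were summed per group of cells and given as CPM with exact Poisson 95% intervals, ratios with conditional binomial intervals and shares with exact binomial intervals. The lower level of a ratio was set to at least 3 counts, except in the results flagged for a closer look, where ratios on 1 to 3 counts are given as counted with their interval. Named genes are the 15 highest and 15 lowest ratios among genes at 20 CPM or more, the 10 highest and 10 lowest against each other library, and genes of 29 lists. The split by Kera was ranked in the same way. The calculation of ratios was checked on simulated data, where 100 of 100 genes with a raised and 100 of 100 with a reduced level were recovered. A ratio of summed counts returns a planted level almost by construction, so this check says nothing of single ratios in these data. Doublets were kept and were scored with Scrublet in scanpy 1.11.5. Tables and plots used pandas 2.3.3, matplotlib 3.10.9, scipy 1.17.1 and numpy 2.4.6 under Python 3.11.15. The cells and lists were chosen with earlier results of these data known.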

Additional observations from a re-analysis of the deposited data

Results flagged for a closer look

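In 7 cases a named or listed gene passed 2-fold one way at d5 post-polytrauma and the other way in another library, and these differences were not tested. Ratios here are as counted, with no count raised to 3. Col2a1 had a ratio of tenocyte-like to comparison cells of 0.332 at d5 post-polytrauma and of 52.2 at d0 (55 UMIs against 5, counting interval 21.1 to 167). At d5 post-polytrauma its detection went the other way than its level, with 4.4% of thinned tenocyte-like cells against 2.17% of comparison cells. Apoe had a ratio of 0.312 at d5 post-polytrauma and of 4.98 at d3 post-fracture (78.4 against 15.7 CPM). At d5 post-polytrauma Apoe had a UMI in 10.6% of tenocyte-like and 11.6% of comparison cells, where 1 cell held 252 of its 3016 UMIs. Aspn had a ratio of 2.16 at d5 post-polytrauma and of 0.406 at d0 (243 against 600 CPM). Hbb-bs had a ratio of 3.48 at d5 post-polytrauma, where 1 tenocyte-like cell held most of its UMIs, and of 0.597 without the highest cell of each group, against 0.0144 at d0 and 0.0313 at d3 post-fracture (1 UMI, interval 0.000792 to 0.175). Hba-a1 had a ratio of 3.42 at d5 post-polytrauma, of 0.461 there without the highest cell of each group, and of 0.00355 at d0 (1 UMI, interval 8.97e-05 to 0.0198). Without those cells, neither hemoglobin gene differs in direction between these libraries. Serpinb1a, which encodes a protease inhibitor, had a ratio of 4.10 at d5 post-polytrauma and of 0.0735 at d0 (3 UMIs, interval 0.0150 to 0.218).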

How the results depend on the processing

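No paired analysis was possible because each condition has 1 library and nothing pairs them. The share of 6.08% became 10.9% with 1 or more UMIs, 4.08% with 3 or more and 2.23% after thinning to 5000 UMIs, and was within its interval under the other 5 alternatives. The 87 higher genes became 44 at a limit of 50 CPM and were between 67 and 108 otherwise. The 45 lower genes became 74 with 3 or more UMIs of the markers, 82 with the mean CPM per cell, 69 without the highest Scrublet scores and 15 at 50 CPM. The tendon matrix median of 1.01 became 1.10 at 10000 UMIs per cell, 1.10 with 3 or more UMIs, 0.83 against all other cells, 1.15 with comparison cells drawn to the same depth, 0.92 with the mean CPM per cell, 1.12 without the highest Scrublet scores and 1.24 at 50 CPM. The causes of these moves were not tested, apart from the settings that test fewer genes. Of 360 ratios of the 30 named genes under 12 settings, 264 were within the counting interval, 96 were not and 0 turned direction. The limit of 50 CPM does not change a ratio, so its 30 were within by construction. The settings that kept or left out shared barcodes changed few cells and also gave 30 of 30 each. The 30 genes were picked for their extreme ratios, so a turn of direction was unlikely from the start. In 2 settings chosen after seeing the data, Ccl5 became 1.24 and Lcn2 1.52 without the Kera cells (from 17.8 and 11.5), and Col2a1 became 0.105 without its top cell in each group. Against all other cells, which include the intermediate ones, the ratio of Thbs4 became 6.6, of Fmod 6.37, of Mkx 6.78, of Lcn2 6.26, of Rspo2 8.69 and of Kcnk1 5.36. Without the highest Scrublet scores Aldh1a2 became 0.0641 from 0.172, Col2a1 0.100 from 0.332 and Cyp1b1 0.207 from 0.318. Scrublet's own threshold called 0 cells, so the 1283 highest scores of 12615 cells were taken, which marked 15.5% of tenocyte-like and 9.58% of comparison cells. Depth limits genes under 20 CPM and the other libraries' 68 to 137 cells.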

Other observations

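Among the other genes at least 2-fold higher in the tenocyte-like cells, chosen here after their values were seen, were the mineralization inhibitor gene Mgp (2241 against 532 CPM), the imprinted gene Mest (914 against 303), the growth factor gene Igf1 (601 against 211) and Cilp, which encodes a cartilage intermediate layer protein (368 against 143). The secreted factor genes C1qtnf3 (395 against 135), Angptl2 (401 against 174) and Clec11a (146 against 48.5) and the protease inhibitor gene Slpi (200 against 57.6) lay in the same group.

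Among the other genes at least 2-fold lower, also chosen after their values were seen, were the transcription factor genes Osr1 (21.3 against 58.8 CPM) and Ebf2 (10.4 against 27.1), which are active in connective tissue and fat progenitors. The chemokine genes Ccl7 (384 against 805 CPM) and Cxcl5 (187 against 413), the cytokine gene Il11 (31.0 against 82.4), the fatty acid binding protein gene Fabp5 (544 against 1132) and the signalling gene Wnt5a (25.7 against 55.0) lay in this group. These ratios come from the contrast that chose the cells and were not tested.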
